A study of Mus musculus with 60 samples.

Results

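Pdcd4 and Zfp985 are 2 of the 27238 genes in the expression table, each matched by its Ensembl identifier (ENSMUSG00000024975 and ENSMUSG00000065999). They were selected on the blastula stage of these same libraries, where both were lower in embryos made by nuclear transfer (NT) than in embryos conceived in vivo. The blastula values of both genes are therefore given as a description, and both were tested only between libraries of other stages and of the donor cells.

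Single mouse embryos were sequenced at 6 stages, with 3 libraries in each of 20 groups and 60 libraries in all. In vivo embryos came from C57BL/6 females mated with DBA2 males. NTC embryos received the nucleus of a cumulus cell (CC) from a BDF1 female, and NTM embryos received the nucleus of an embryonic fibroblast (MEF) from BDF1 fetuses after culture and passage. Both kinds of NT embryo used enucleated BDF1 oocytes, were activated with SrCl2, cytochalasin B and Scriptaid, and were cultured in vitro, whereas in vivo embryos were collected from the mother. Nuclear transfer, culture and the strain of the oocyte donor (BDF1 or C57BL/6) thus cannot be told apart in these comparisons. CCs and MEFs were sequenced as donor cells.

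Pdcd4 encodes an inhibitor of translation that binds the RNA helicase eIF4A through MA3 domains and so keeps it from the cap-binding complex eIF4F. Growth signals lead to its phosphorylation by the ribosomal protein S6 kinases, after which the ubiquitin ligase SCF with βTrCP marks it for degradation. Zfp985 belongs to a cluster of genes on distal chromosome 4 that encode zinc finger proteins with a KRAB domain. Proteins of this family bind DNA and recruit TRIM28 (KAP1) with the histone methyltransferase SETDB1, and they are known for the silencing of retrotransposons in the early embryo.

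In the GENCODE M21 annotation (genome build GRCm38), Pdcd4 spans chr19:53892231-53929860 on the plus strand and Zfp985 spans chr4:147553277-147585198 on the plus strand. Both are annotated as protein coding. The windows around their start sites (GRCm38.p6, RefSeq) are shown because they differ in CpG dinucleotides, the sites of DNA methylation, which are in capitals. Each window has 300 bases. Pdcd4 has an upstream start at chr19:53891981-53892280 (plus strand) and a second one, inside the gene, at chr19:53903101-53903400 (plus strand). The window of Zfp985 lies at chr4:147553027-147553326 (plus strand).
Pdcd4, upstream start: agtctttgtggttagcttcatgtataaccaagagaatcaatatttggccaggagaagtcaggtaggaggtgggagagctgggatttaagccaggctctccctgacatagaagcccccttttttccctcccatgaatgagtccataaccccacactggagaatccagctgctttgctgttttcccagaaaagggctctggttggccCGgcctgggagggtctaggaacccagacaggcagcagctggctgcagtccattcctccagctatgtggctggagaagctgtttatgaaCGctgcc
Pdcd4, inner start: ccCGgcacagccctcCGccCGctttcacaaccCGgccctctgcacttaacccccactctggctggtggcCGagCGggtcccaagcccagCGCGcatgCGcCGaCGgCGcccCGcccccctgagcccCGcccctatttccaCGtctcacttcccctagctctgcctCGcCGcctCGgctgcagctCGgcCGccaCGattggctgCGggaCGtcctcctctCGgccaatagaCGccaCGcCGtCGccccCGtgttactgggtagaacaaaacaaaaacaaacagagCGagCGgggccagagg
Zfp985: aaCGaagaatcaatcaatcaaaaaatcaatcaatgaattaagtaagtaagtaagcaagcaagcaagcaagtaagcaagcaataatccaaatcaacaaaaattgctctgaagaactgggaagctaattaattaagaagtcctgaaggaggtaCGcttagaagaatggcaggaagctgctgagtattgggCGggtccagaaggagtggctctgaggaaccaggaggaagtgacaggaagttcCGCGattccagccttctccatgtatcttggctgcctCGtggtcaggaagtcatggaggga
The inner start of Pdcd4 holds 31 CG pairs, more than 89.4% of 32851 start-site windows of the same length, and 68.7% of its bases are G or C. Its upstream start holds 2 and that of Zfp985 holds 6, more than 14.1% and 43.6% of the windows. At least 1 CG pair, which reads alike on both strands, occurs in 94.6% of all windows. The 15 windows listed for 12 of the other zinc finger genes of the cluster held 1 to 16 CG pairs with a median of 4, beside a median of 7 over all windows. These are counts of letters, and methylation was not measured.

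Values are RPKM (reads on a gene, scaled by exon length and by the total of that library), and differences are in log2(RPKM + 1). Read numbers of both genes were worked out from the spacing of their values, and the 54 embryo libraries held 5294167 to 26281508 reads on genes. Donor libraries were deeper, at 31558140 to 47830132. The in vivo blastulas stand apart, since they held 7730 to 7808 genes above 0 and the NT blastulas 11498 to 13568. Mitochondrial genes took 5.68% to 8.87% of the reads in in vivo 4-cell embryos and 29.6% to 40.4% in NT embryos of that stage. Of 12 cumulus markers, 12 were listed at 0 in all in vivo blastulas, and the summed level of the 12 was at most 3.29 RPKM in NT blastulas, beside 519 to 817 RPKM in CCs. The 12 MEF markers summed to 0 to 22.3 RPKM in the embryo libraries and to 9890 RPKM or more in MEFs. The cumulus list does not separate the donor cells, as it summed to 496 to 1210 RPKM in MEFs. The 15 trophectoderm markers summed to 697 to 1858 RPKM in in vivo blastulas, 241 to 1474 in NTC and 597 to 1383 in NTM blastulas, so the ranges overlapped. Their part in the results below was not tested. Each library is 1 embryo or 1 preparation of donor cells, and a lower value can mean fewer cells with the transcript or less RNA per cell.

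Zfp985 went from near 0 to one of the most abundant transcripts in in vivo embryos. The 3 in vivo 1-cell libraries held 0, 2.11 and 0.729 RPKM and the 2-cell libraries 0, 0 and 1.29. It then measured 14.6, 10.7 and 11.01 RPKM at the 4-cell stage and 74.2, 151 and 104 at the 8-cell stage. In vivo morulas held 170, 215 and 216 RPKM, and in vivo blastulas 447, 1292 and 1072. From the 2-cell stage on, no library overlapped with those of the next stage. In the blastulas Zfp985 ranked 71st, 32nd and 36th among all genes of its library.

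NT libraries lay below those of in vivo embryos from the 4-cell stage on. NTC embryos measured 0.448, 2.95 and 0 RPKM of Zfp985 at the 1-cell stage, 0.472, 0.932 and 0.132 at the 2-cell stage and 3.72, 2.88 and 10.5 at the 4-cell stage. NTC 8-cell embryos were the most uneven, with 8.03, 1.39 and 25.9 RPKM. NTC morulas measured 60.2, 12.7 and 26.1 RPKM and NTC blastulas 36.9, 44.5 and 16.3. The NTC blastulas lay within the range of the NTC morulas.

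NTM embryos held at most 5 reads of Zfp985 in any library up to the 4-cell stage. It measured 0.0984, 0.0707 and 0.0633 RPKM at the 1-cell stage, 0.0178, 0.0253 and 0.0844 at the 2-cell stage and 0.1001, 0.107 and 0 at the 4-cell stage. It then measured 10.3, 8.15 and 10.9 RPKM at the 8-cell stage, 33.2, 19.3 and 42.4 in morulas and 34.5, 22.6 and 31.5 in blastulas. From the 4-cell stage to the morula, every NTC and NTM library lay below all 3 in vivo libraries of its stage.

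Pdcd4 had a different course, with a low in the middle stages. In vivo embryos measured 2.43, 1.65 and 3.41 RPKM at the 1-cell stage, 3.66, 1.07 and 2.89 at the 2-cell stage and 3.42, 1.94 and 2.09 at the 4-cell stage. At the 8-cell stage the values were 0.0547, 0 and 0, which are 2, 0 and 0 reads. In vivo morulas measured 0.0616, 0.320 and 0.658 RPKM (3, 12 and 23 reads), and in vivo blastulas measured 31.3, 45.8 and 103. The 3 blastulas lay above every other library of any group, and the 8-cell embryos were at or under the floor of 3 reads.

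In NT embryos Pdcd4 lay above the in vivo range at the 1-cell stage and below it at the 4-cell stage. NTC embryos measured 4.25, 10.2 and 7.24 RPKM of Pdcd4 in 1-cell libraries, and NTM embryos 3.87, 9.61 and 10.1. All 6 NT libraries lay above the 3 in vivo libraries. At the 2-cell stage the NTC libraries held 0.563, 5.96 and 6.43 RPKM and the NTM libraries 11.1, 3.35 and 0.821, which overlapped with in vivo embryos. NTC 4-cell embryos held 0.697, 0.198 and 0.114 RPKM (17, 6 and 3 reads) and NTM 4-cell embryos 0.225, 0 and 0.0849 (10, 0 and 4 reads). All 6 lay below the in vivo libraries, which held 115, 74 and 87 reads.

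From the 8-cell stage to the blastula NT embryos held at most 80 reads of the transcript. NTC embryos measured 0.187, 0 and 0.622 RPKM of Pdcd4 at the 8-cell stage and 0, 0.0249 and 0.104 as morulas. NTM embryos measured 0.0153, 0.0825 and 0 RPKM at the 8-cell stage and 0, 0 and 0.0279 as morulas. A value of 0 allows up to 3 reads, which equal 0.0447 to 0.222 RPKM in the embryo libraries, so the groups of these stages cannot be ordered. These limits cover counting error only, since the libraries were amplified without molecular identifiers. NTC blastulas measured 0.533, 0.576 and 0.0383 RPKM (18, 28 and 1 read) and NTM blastulas 1.74, 0.202 and 0.889 (80, 10 and 47 reads).

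**Figure D1:**
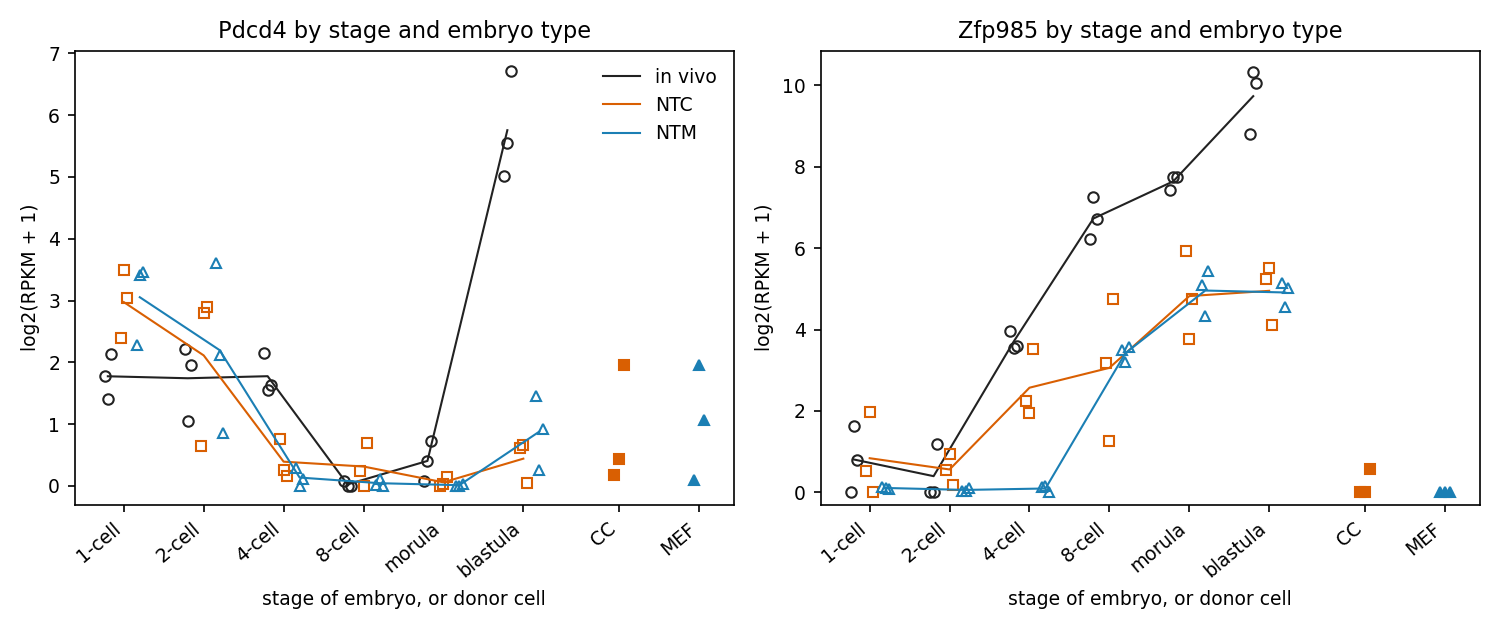
Levels of Pdcd4 (left) and Zfp985 (right) as log2(RPKM + 1) by stage in in vivo (circles), NTC (squares) and NTM (triangles) embryos and, filled, in the donor cells CC and MEF; each symbol is 1 library and lines join the means of 3. Zfp985 of in vivo embryos climbs from the 2-cell stage to 447 to 1292 RPKM in blastulas, and Pdcd4 of in vivo embryos reaches 31.3 to 103 RPKM after a low at the 8-cell stage.

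The donor cells held little of either transcript. Pdcd4 measured 0.126, 0.346 and 2.86 RPKM in CCs and 0.0743, 2.90 and 1.10 in MEFs. Zfp985 measured 0.00932, 0 and 0.486 RPKM in CCs and 0.00827, 0 and 0 in MEFs. Pdcd4 did not pass the test between MEFs and CCs (log2 difference 0.20 ± 0.82 SE, interval -1.67 to 2.06, limma adjusted p = 0.915), and 6.29% of all genes tested did. Zfp985 was below the minimum mean of 0.5 RPKM there and was not tested.

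Ordered by the mean of log2(RPKM + 1), the groups of Zfp985 ran from in vivo blastulas (9.74 ± 0.82 SD, n = 3) over in vivo morulas (7.64 ± 0.20) and in vivo 8-cell embryos (6.73 ± 0.51) to NTM morulas (4.96 ± 0.56). Each of the first 3 did not overlap with the next in order. NTM morulas, NTC blastulas (4.95 ± 0.74), NTM blastulas (4.91 ± 0.31) and NTC morulas (4.82 ± 1.08) followed with values that overlapped, and NTM 2-cell embryos (0.06 ± 0.05) and MEFs, with at most 1 read, came last. For Pdcd4 the in vivo blastulas (5.75 ± 0.86) stood alone. Each of the other 19 groups, from NTM 1-cell embryos (3.05 ± 0.67) to NTM morulas (0.01 ± 0.02), overlapped with its neighbour in the order.

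In the blastulas on which the genes were selected, the mean RPKM of Pdcd4 was 60.1 ± 38.1 (SD, n = 3) in vivo. NTC blastulas held 0.382 ± 0.299 and NTM blastulas 0.945 ± 0.773, so that in vivo means were 157 and 63.6 times as high. Without in vivo blastula replicate 3 they were 101 and 40.8 times as high, and without NTM blastula replicate 1 the NTM value was 110. The log2 differences were -5.31 and -4.87. Zfp985 measured 937 ± 438 RPKM in vivo, 32.5 ± 14.6 in NTC and 29.6 ± 6.17 in NTM blastulas, so that in vivo means were 28.8 and 31.7 times as high, with log2 differences of -4.78 and -4.82. The median over all genes went the other way, at 0.85 in NTC and 0.86 in NTM blastulas, in libraries that also differed in their number of detected genes. As background, 9.46% of all genes tested passed in NTC (879 genes) and 0.746% in NTM blastulas (70 genes), from which nothing is read about either member. Both counts rest on single libraries. That of NTC blastulas was 1 without NTC blastula replicate 2, and that of NTM blastulas was 1 without in vivo replicate 2 or 3 or NTM replicate 1 or 2 and 1488 without NTM replicate 3. With a pseudocount of 0.1 in place of 1 the differences of Pdcd4 were -7.09 and -6.01, so that its size depends on how values near 0 are treated.

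Stages before the blastula were compared between NT and in vivo embryos in 10 pairs of groups, and a gene was called at an adjusted p (Benjamini-Hochberg over all genes tested) under 0.05 and a log2 difference of at least 1. Zfp985 had enough signal for 8 of them and was lower in 4. At the 8-cell stage it was lower in NTC embryos by limma (log2 difference -3.67 ± 0.75 SE, adjusted p = 0.0402) and in NTM embryos (-3.31 ± 0.39, adjusted p = 0.00519). The shares of all genes that passed were 1.46% and 2.02%, and the medians over all genes were 0.56 and 0.24. In means, in vivo 8-cell embryos held 9.32 times as much as NTC and 11.2 times as much as NTM embryos, and the NTC value was 23.3 without NTC 8-cell replicate 3. Counted from the lowest difference, Zfp985 ranked 13th of 9520 genes in NTC and 11th of 8607 in NTM embryos.

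At the 4-cell stage Zfp985 was lower in NTM embryos (-3.60 ± 0.48 SE, limma adjusted p = 0.00229) and did not pass in NTC embryos (-1.13 ± 0.49, adjusted p = 0.1201). The gene passed the filter on low values there through the in vivo group alone, since the NTM libraries held 5, 3 and 0 reads, and no fold of means is given. The call was kept without that filter (adjusted p = 0.00728). The in vivo mean was 2.13 times that of NTC embryos, or 3.66 times without NTC 4-cell replicate 3. This stage differed widely, and 21.1% of all genes passed in NTM and 27.8% in NTC embryos, with medians of -0.69 and -0.39. In morulas Zfp985 was lower in NTM embryos (-2.68 ± 0.44, adjusted p = 0.0396), where 0.168% of all genes passed. It did not pass in NTC morulas (-2.82 ± 0.54, adjusted p = 0.0913), where 0.0321% did. In vivo morula means were 6.33 times those of NTM and 6.07 times those of NTC morulas, the latter 10.3 times without NTC morula replicate 1.

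At the 1-cell stage Zfp985 did not pass in NTC (0.03 ± 0.64, limma adjusted p = 0.984) or NTM embryos (-0.70 ± 0.51, adjusted p = 0.553), and at the 2-cell stage it was too low to be tested. With any 1 library left out, the differences in 8-cell embryos and morulas ran from -4.51 to -2.30. That of NTM 4-cell embryos was kept in 6 of 6 fits without 1 library and that of NTM 8-cell embryos in 4 of 6, being lost without NTM 8-cell replicate 1 or 2 (adjusted p up to 0.0683). That of NTM morulas was kept in 1 of 6, the fit without in vivo morula replicate 1, and that of NTC 8-cell embryos in 0 of 6 (adjusted p 0.0820 to 0.148). Without a filter on low values the calls of NTC 8-cell embryos and NTM morulas were lost too (limma adjusted p = 0.233 and 0.307).

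Pdcd4 had enough signal for 6 of the 10 pairs and was called in 1. It was lower in NTM 4-cell embryos (-1.64 ± 0.45 SE, limma adjusted p = 0.0352) and did not pass in NTC 4-cell embryos (-1.38 ± 0.46, adjusted p = 0.0529). It passed the filter on low values through the in vivo group alone, and without that filter the call was lost (adjusted p = 0.0663). The call was lost in all 6 fits without 1 library (adjusted p 0.0504 to 0.0707), with the difference at -1.75 to -1.45. It was also lost under median-ratio scaling (-1.29) and with the replicate block, and the call lies within the 21.1% of genes that passed there. At the 1-cell stage the differences of 1.20 ± 0.47 in NTC (adjusted p = 0.185) and 1.28 ± 0.56 in NTM embryos (adjusted p = 0.334) did not pass, where 1.16% and 1.28% of all genes did. At the 2-cell stage they were 0.37 ± 0.81 and 0.45 ± 0.92 (adjusted p = 0.891 and 0.884), and 0.152% and 0.141% of all genes passed. In 8-cell embryos and morulas it was below the minimum mean.

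**Figure D2:**
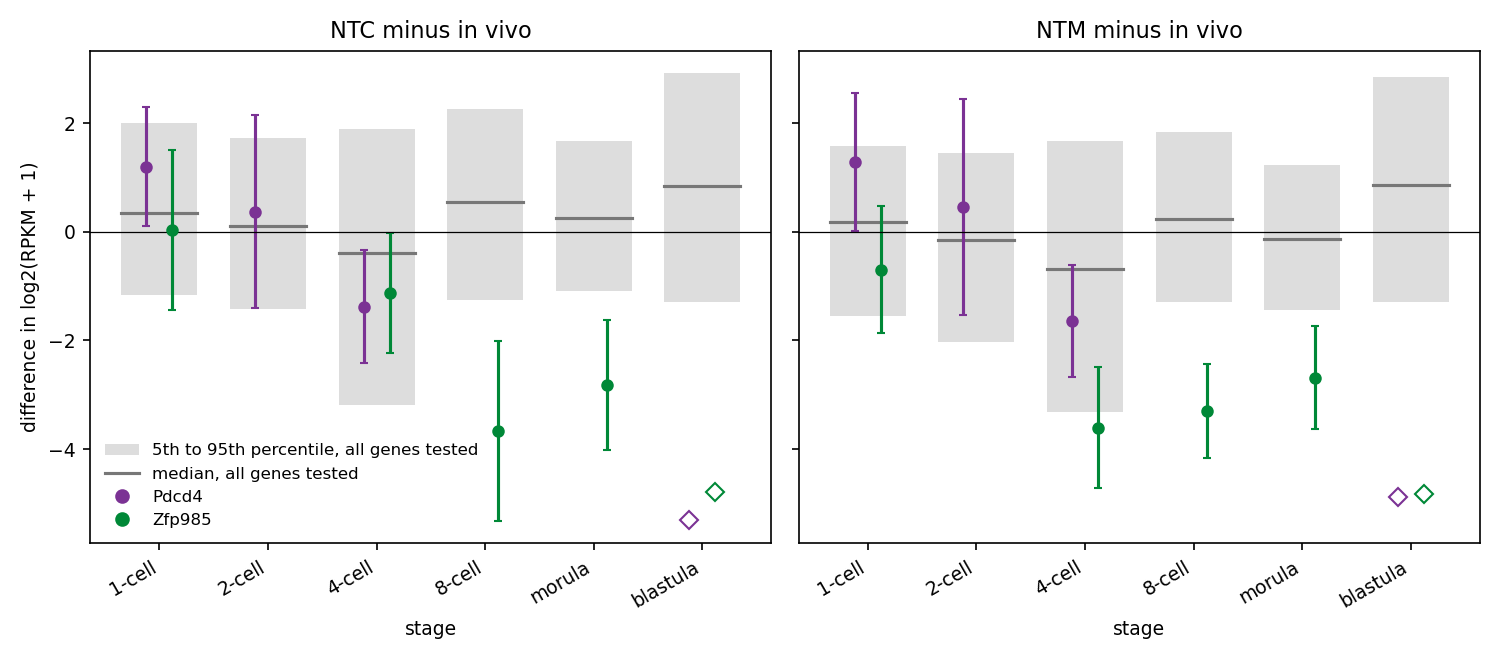
Difference in log2(RPKM + 1) between NTC (left) or NTM (right) and in vivo embryos at each stage for Pdcd4 and Zfp985, with 95% intervals from limma; grey bars span the 5th to the 95th percentile of all genes tested. Open diamonds mark the blastula values on which the genes were selected, and Zfp985 lies under the grey bars in 8-cell embryos and morulas, with differences of -3.67 to -2.68.

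The sign of the Pdcd4 difference changed between the 1-cell and the 4-cell stage, and this change was tested in a model with both stages, which was added after the values had been seen. The NT minus in vivo difference of Pdcd4 shifted from the 1-cell to the 4-cell stage by -2.58 ± 0.54 SE in NTC (limma adjusted p = 0.00439) and by -2.92 ± 0.60 in NTM embryos (adjusted p = 0.00555). Both calls were kept in all 12 fits without 1 library, and no other setting was run for this model. Zfp985 passed by limma in NTM (-2.90 ± 0.59, adjusted p = 0.00521) but not in NTC embryos (-1.16 ± 0.83, adjusted p = 0.341). The NTM libraries held 3 to 4 reads of Zfp985 at the 1-cell and 0 to 5 at the 4-cell stage. It passed the filter on low values there through the in vivo libraries alone, so the shift reflects their rise. This model was not fitted without the filter. Of all genes, 24.9% passed in NTC and 18.7% in NTM embryos, with a median of -0.65 and -0.66. NTC and NTM embryos were compared with the same in vivo libraries.

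Successive stages of each embryo type were compared in 12 steps, of which Zfp985 had enough signal for 10 and Pdcd4 for 7. In in vivo embryos Zfp985 rose from the 2-cell to the 4-cell stage (3.30 ± 0.45 SE, limma adjusted p = 0.000739) and again to the 8-cell stage (3.03 ± 0.35, adjusted p = 0.000424), and both calls were kept in 6 of 6 fits without 1 library. All genes passed at a share of 52.2% and 43.7% in these steps, with medians of 0.36 and -1.05. In the step to the 4-cell stage Zfp985 passed the filter on low values through the 4-cell libraries alone, as the in vivo 2-cell mean was 0.429 RPKM. In the step from the 1-cell to the 2-cell stage (-0.41 ± 0.66, adjusted p = 0.904) 0% of genes passed by limma, and 0.0116% did from the 8-cell stage to the morula (Zfp985 0.92 ± 0.40, adjusted p = 0.464). At an unadjusted p under 0.05 there were 615 genes in the step with none called.

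In NTC embryos Zfp985 rose from the 2-cell to the 4-cell stage (2.01 ± 0.57 SE, limma adjusted p = 0.0248), where 36.6% of genes passed, and the call was kept in 3 of 6 fits without 1 library and lost without the filter on low values (adjusted p = 0.0692). It did not pass from the 1-cell to the 2-cell stage (-0.28 ± 0.58, adjusted p = 0.780, background 13.5%), to the 8-cell stage (0.49 ± 0.87, adjusted p = 0.842, background 0.0564%) or to the morula (1.76 ± 0.84, adjusted p = 0.420, background 0%). In NTM embryos Zfp985 did not pass in 8-cell against 4-cell embryos (3.33 ± 0.66, limma adjusted p = 0.0757), where 0.363% of genes did. The next step, to the morula, measured 1.54 ± 0.39 (adjusted p = 0.320, background 0%). In the 2 steps with none called, 1270 genes in NTC and 843 in NTM embryos had an unadjusted p under 0.05. The first 2 steps of NTM embryos were not tested for this gene, which was below the minimum mean.

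Pdcd4 fell in in vivo embryos from the 4-cell to the 8-cell stage (-1.75 ± 0.36 SE, limma adjusted p = 0.00598), which was kept in 6 of 6 fits without 1 library. In this step 43.7% of all genes passed and their median was -1.05. Pdcd4 passed the filter through the 4-cell libraries alone, and the call was kept without the filter (adjusted p = 0.0178). The steps from the 4-cell to the 8-cell stage in NT embryos and from the 8-cell stage to the morula in all embryos were below the minimum mean and not tested. The earlier in vivo steps measured -0.03 ± 0.76 and 0.03 ± 0.44 (adjusted p = 0.995 and 0.951). Of the steps tested in NT embryos, that from the 2-cell to the 4-cell stage was the larger. It measured -1.72 ± 0.68 in NTC (limma adjusted p = 0.0811) and -2.06 ± 0.78 in NTM embryos (adjusted p = 0.0863), and neither passed. Pdcd4 passed the filter on low values there through the 2-cell libraries alone, as its 4-cell means were 0.337 and 0.103 RPKM. In the NTM step 26.4% of genes passed. From the 1-cell to the 2-cell stage Pdcd4 measured -0.86 ± 0.64 in NTC and -0.86 ± 0.76 in NTM embryos (adjusted p = 0.407 and 0.495), where 9.4% of genes passed in NTM embryos.

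NTM and NTC embryos were compared directly at 5 stages, of which Zfp985 had enough signal for 4 and Pdcd4 for 2, and 0 of these 6 tests passed. The Zfp985 difference was -2.48 ± 0.80 SE at the 4-cell stage (limma adjusted p = 0.739), where 0% of genes passed. It was -0.73 ± 0.51 at the 1-cell stage (adjusted p = 0.331), where 19.8% passed, 0.36 ± 0.76 at the 8-cell stage (adjusted p = 0.851, background 0.0507%) and 0.14 ± 0.54 in morulas (adjusted p = 0.911, background 0%). For Pdcd4 the differences were 0.08 ± 0.42 in 1-cell (interval -0.89 to 1.04) and 0.08 ± 0.93 in 2-cell embryos (interval -1.95 to 2.12), with 0% of all genes passing at the 2-cell stage. In a single model of all 20 groups, Zfp985 passed between NTM and NTC 4-cell embryos. The filter and variance of that model use all 60 libraries, among them the blastulas on which Zfp985 was selected. Nothing is read from this call. In the fits of 2 groups the unadjusted p was under 0.05 for 772, 602 and 1534 genes at the 2-cell and 4-cell stages and in morulas.

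The other zinc finger genes of the chromosome 4 cluster were followed as a list of 19 genes, of which 18 are in the table. In NTC 8-cell embryos 6 of the 15 tested were called lower and 0 higher, where 1.46% of all genes were called. The median difference of the list was -2.84 there, against 0.56 over all genes. Zfp534 measured 57.6 ± 34.0 RPKM (SD, n = 3) in vivo and 0.0811 ± 0.0846 in NTC 8-cell embryos (log2 difference -5.60 ± 0.62 SE, limma adjusted p = 0.00488). Zfp987 measured 48.3 ± 13.9 and 0.132 ± 0.1003 RPKM (-5.41 ± 0.56, adjusted p = 0.00416), and Zfp988 measured 40.9 ± 14.6 and 1.96 ± 2.19 (-4.04 ± 0.66, adjusted p = 0.0202). Zfp534 and Zfp987, with NTC means under 0.5 RPKM, passed the filter on low values there through the in vivo group alone. Zfp989, Zfp982 and Zfp979 made up the rest of the 6. With 1 library left out the count was 2 to 3 and the median -3.11 to -2.08, and without a filter on low values the count was 0 and the median -1.77. Zfp987 and Zfp988 were named here after their values were seen.

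In NTM 8-cell embryos 1 of 17 was called lower and 0 higher (2.02% of all genes were called), and the median was -1.26 beside 0.24 over all genes. That gene was Zfp979, which lies next to Zfp985, and it was called lower in both NT groups. It measured 145 ± 58.6 RPKM in vivo, 20.8 ± 13.9 in NTC (-2.84 ± 0.52 SE, limma adjusted p = 0.0309) and 36.5 ± 12.4 in NTM 8-cell embryos (-1.95 ± 0.41, adjusted p = 0.0425). With median-ratio scaling 4 were called lower in NTM 8-cell embryos, and without any 1 library 0. In morulas 0 of 18 and 0 of 17 were called, though 15 and 16 had a negative difference and the medians were -1.25 in NTC and -1.32 in NTM embryos (all genes 0.26 and -0.14).

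At the 4-cell stage genes of the list were called in both directions. In NTM embryos 7 of 14 were called lower and 1 higher (median -1.53, all genes -0.69), and in NTC embryos 2 of 16 lower and 1 higher (median -0.54, all genes -0.39). Without the filter on low values 5 of 18 were lower and 0 higher in NTM embryos, and 2 lower and 1 higher in NTC embryos. In NTM 4-cell embryos 5 genes of the list were at 0 in all libraries. Any of these that were tested passed the filter through the in vivo group alone. Of all genes 21.1% were called in NTM and 27.8% in NTC embryos, so the NTC count does not stand out. The count of lower genes was 4 in NTM embryos without in vivo 4-cell replicate 3, and in NTC embryos it was 0 without in vivo 4-cell replicate 1 and 1 without replicate 2. Zfp980 and Zfp978 were lower in both NT groups, at -2.71 ± 0.61 SE and -2.87 ± 0.63 in NTC (limma adjusted p = 0.0106 and 0.0101) and at -3.91 ± 0.57 and -3.77 ± 0.51 in NTM embryos (adjusted p = 0.00331 and 0.00242). Zfp984 was higher in both, by 2.74 ± 0.38 in NTC and 1.88 ± 0.54 in NTM embryos (limma adjusted p = 0.000979 and 0.0427). Its call in NTM embryos was lost with no filter on low values and with the replicate block. It was also lost without any 1 of the in vivo 4-cell libraries and without NTM 4-cell replicate 1. At the 1-cell and 2-cell stages 0 or 1 was called in each direction. Zfp990 was higher in both NT groups at the 1-cell stage, by 2.53 ± 0.39 in NTC and 4.05 ± 0.58 in NTM embryos (limma adjusted p = 0.0339 and 0.0149). Its in vivo values were near 0, so it passed the filter on low values through the NT libraries alone. With no filter 0 genes of the list were called higher in either comparison. With 1 library left out the count was 0 or 1 in both. These lists were chosen with earlier results of these data known, and the counts are a description.

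**Figure D3:**
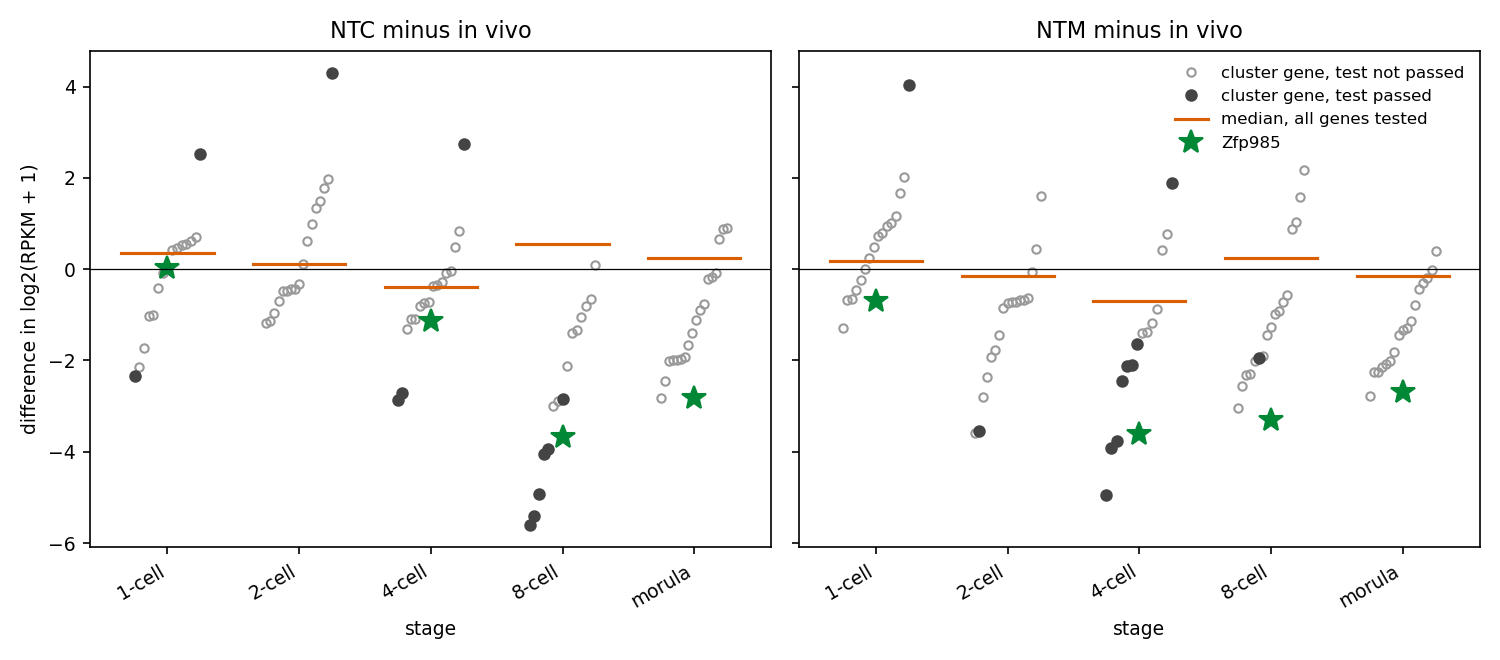
Difference in log2(RPKM + 1) between NTC (left) or NTM (right) and in vivo embryos for each zinc finger gene of the chromosome 4 list that was tested; filled circles passed the test, stars are Zfp985 and bars mark the median of all genes tested. In NTC 8-cell embryos 14 of 15 circles lie below 0 while the bar lies at 0.56.

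Summed over the 18 genes, the list measured 501 to 578 RPKM in in vivo 8-cell libraries, 29.7 to 107 in NTC and 74.2 to 223 in NTM libraries, so that in vivo libraries lay above all NT libraries while NTC and NTM overlapped. In blastulas the list measured 382 to 747 RPKM in vivo, 183 to 250 in NTC and 178 to 199 in NTM embryos. Zfp985 alone measured 447 to 1292 RPKM in the same in vivo blastulas. The list medians there were -0.73 in NTC and -0.13 in NTM blastulas, beside -4.78 and -4.82 for Zfp985. As Zfp985 was selected on these blastulas, no contrast with the list is read from its values there. In the donor cells the list summed to 5.44 to 20.7 RPKM.

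**Figure D4:**
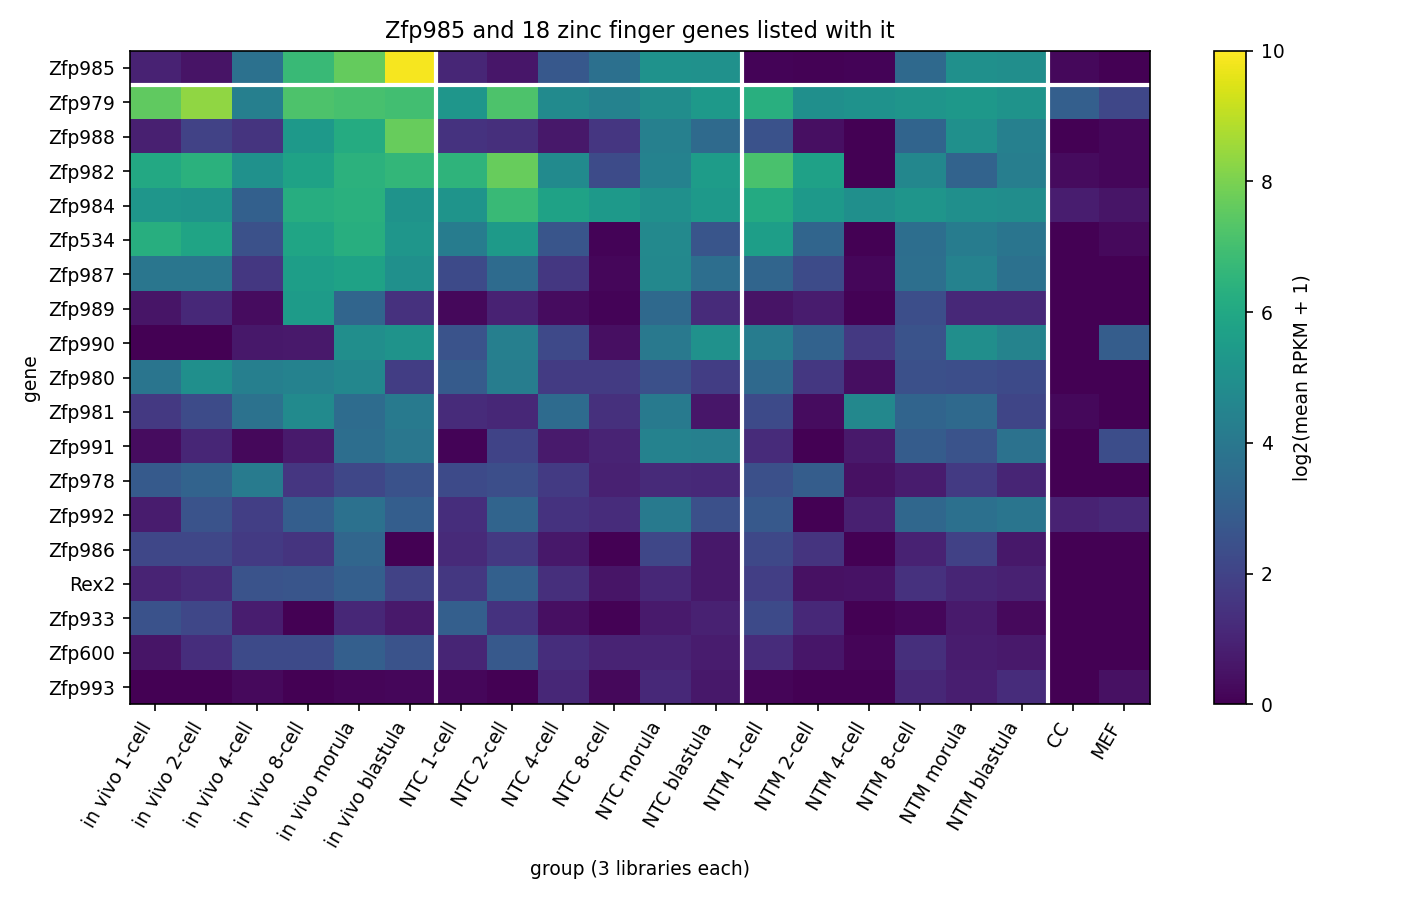
Mean level, as log2(mean RPKM + 1), of Zfp985 (top row) and the 18 listed zinc finger genes in the 20 groups of 3 libraries each, from in vivo, NTC and NTM embryos by stage to the donor cells; white lines part the embryo types. Zfp985 is brightest in in vivo blastulas (937 RPKM), while Zfp979 measures 327 RPKM in in vivo 2-cell and 18.8 in in vivo 4-cell embryos.

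The sequences of the cluster are alike, which bears on how reads were assigned. Of the 2910 windows of 75 bases in the transcripts of Zfp985, 127 (4.36%) occur without a mismatch in another gene, most often Gm13212 (92 windows) and Gm13147 (70 windows), and also in Zfp984 (35) and Zfp988 (28). Of its 2950 windows of 150 bases, 0 occur elsewhere. Pdcd4 shares 0 windows of either length with another gene. The study read 150 bases from each end, a length at which 0 windows of Zfp985 were shared. How reads that match a related gene equally well were counted is not known, and the values of Zfp985 are uncertain to that extent.

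The 3 genes on either side of each member in the table were also read out. Downstream of Zfp985 lie Zfp979, the long noncoding RNA Gm16211 and Zfp534. Gm16211 was lower in NTC 4-cell (-2.72 ± 0.38 SE, limma adjusted p = 0.00103) and NTM 4-cell embryos (-4.02 ± 0.47, adjusted p = 0.00139), and was 0.0262 RPKM in in vivo blastulas, where Zfp985 was highest. The 3 upstream neighbours Gm16503, Vmn2r-ps20 and Gm15951 were listed at 0 on average in all blastula groups. Downstream of Pdcd4 lie Bbip1, Shoc2 and Adra2a. Bbip1 is on the opposite strand, and its end, not its start, lies 1 base past the end of Pdcd4. Bbip1 measured 24.5 RPKM in in vivo, 35.8 in NTC and 30.2 in NTM blastulas. It was higher in NTC 4-cell embryos (1.62 ± 0.35, adjusted p = 0.00893). Shoc2 measured 38.9, 10.02 and 9.43 RPKM in blastulas of the in vivo, NTC and NTM kind. Upstream, Rbm20, Gm16298 and Gm16299 measured at most 1.67 RPKM in any group.

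TRIM28 and its partners, through which KRAB zinc finger proteins act, were followed as a list of 16 genes. Outside the 4-cell stage 1 call was made among the stages before the blastula, that of Resf1, which was lower in NTM 1-cell embryos. At the 4-cell stage 4 of 15 were lower and 1 higher in NTC and 3 of 15 lower and 2 higher in NTM embryos, near the 27.8% and 21.1% of all genes called there. Cbx3, a heterochromatin protein of the HP1 family, was lower by -4.36 ± 0.37 SE in NTC and -3.79 ± 0.52 in NTM embryos (limma adjusted p = 7.4e-05 and 0.00264). The deacetylase gene Hdac1 was lower (-2.62 ± 0.26 and -2.66 ± 0.60) and Hdac2 was higher (3.04 ± 0.32 and 2.02 ± 0.50) in both. Trim28 was lower by -1.25 ± 0.31 and -1.75 ± 0.44 (adjusted p = 0.0157 and 0.0268). The list medians, 0.34 in NTC and -0.12 in NTM embryos, lay above those of all genes (-0.39 and -0.69).

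The eIF4F complex, which Pdcd4 restrains, and related genes were followed as a list of 18, of which 17 are in the table. At the 4-cell stage 5 were higher and 3 lower in NTC and 4 higher and 1 lower in NTM embryos, of 17 tested, beside 27.8% and 21.1% of all genes. Eif4a1, the helicase that Pdcd4 binds, was higher by 1.20 ± 0.32 SE in NTC and 1.61 ± 0.41 in NTM embryos (limma adjusted p = 0.0232 and 0.0286), and was lower in NTM 1-cell embryos (-4.68 ± 0.39, adjusted p = 0.00184). Eif4a1 was named after its values were seen. Pabpc1, the poly(A)-binding protein gene, was higher by 2.15 ± 0.28 and 2.04 ± 0.41. The gene of the related protein Eif4g2, which has an MA3 domain like that of Pdcd4, was higher by 2.02 ± 0.23 and 2.03 ± 0.32, and Eif4ebp1, an inhibitor of cap binding, by 1.51 ± 0.33 and 2.46 ± 0.32. Eif4a3, a helicase of the exon junction, was lower by -3.24 ± 0.28 and -2.71 ± 0.52. Outside this stage 4 calls were made among the stages before the blastula, those of Eif4h in NTC and Eif4a1 in NTM 1-cell embryos and of Eif4ebp1 and Pabpc1 in NTM 8-cell embryos. The list medians, -0.31 and 0.11, lay above those of all genes at the 4-cell stage.

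The kinases and the ubiquitin ligase that govern the turnover of the Pdcd4 protein were followed as 19 genes. At the 4-cell stage 3 were higher and 3 lower in NTC (of 19) and 2 higher and 3 lower in NTM embryos (of 18), and 0 were called at the other stages before the blastula. The 4-cell shares lay near those of all genes (27.8% and 21.1%). Rbx1, a ring protein of the SCF ligase, was lower by -3.32 ± 0.30 SE in NTC and -4.61 ± 0.77 in NTM embryos (limma adjusted p = 9.9e-05 and 0.00578), and Rheb, an activator of mTOR, was higher by 3.01 ± 0.33 and 3.10 ± 0.43. Rps6kb2, one of the S6 kinases, was lower by -1.90 ± 0.53 and -3.17 ± 0.54 (adjusted p = 0.0282 and 0.00649). The medians of the list, -0.40 and -0.42, were close to those of all genes in NTC embryos (-0.39) and above them in NTM embryos (-0.69). These are transcripts, and protein was not measured.

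Genes most like each member in their course were named by the Pearson correlation of group means over the 20 groups among 13535 genes, as a description. For Pdcd4 these were Fry (0.94), St13 (0.90), Hist1h4c (0.88), Pikfyve (0.87) and Tmf1 (0.85). Tmf1 measured 124 RPKM in in vivo, 9.16 in NTC and 10.1 in NTM blastulas, and St13 measured 383, 52.9 and 38.7. For Zfp985 they included Tat (0.94), BC048679 (0.93), Rpl17-ps5 (0.92) and Trap1a (0.92). Trap1a measured 510 RPKM in in vivo, 51.0 in NTC and 73.9 in NTM blastulas. The likeness includes the in vivo blastulas on which the members were selected, and the groups differed in depth, with donor libraries deeper than those of embryos. Between Pdcd4 and Zfp985 the correlation was 0.05.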

How the data were processed

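Single embryos and donor cells were lysed, the RNA was reverse transcribed, tailed and amplified without molecular identifiers, and 60 libraries were sequenced as paired-end reads. The authors deposited RPKM values of 27238 genes, with TopHat as the aligner and HTSeq as the counter, and these were used as deposited. The labels name Bowtie 0.12.2 and the mm8 build, whereas gene positions and sequences here come from GRCm38. The fit of the values to whole reads at GENCODE M21 exon lengths was checked in each library, and 73.0% to 80.2% of values under 200 reads came out whole within 0.01. For Pdcd4 the exon length came from the steps of its own values (2556 bases, not the 3135 of M21), and for Zfp985 it was that of M21 (2871). At these lengths 100% of the values of both genes were whole reads within 0.1, a length fitted to the same values for Pdcd4.

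Groups were taken from the labels. The 2 genes, and all gene lists, were chosen with earlier results of these data known. Pairs of groups were compared with limma 3.58.1 in R 4.3.3 (lmFit, eBayes with a trend) on log2(RPKM + 1), keeping genes whose mean RPKM over the compared libraries reached 0.5. A fold change on this scale understates the change of low genes. The study compared groups in pairs with a count model, which RPKM does not allow. The study describes the 3 libraries of a group as biological replicates, of 1 embryo each for embryos. Genes were named by rule: both members with every value, the 5 genes most like each (1 of them is not reported here), the 3 neighbours on either side, and up to 4 genes per list called in both NT groups at a stage. On simulated data in which 200 genes were moved by 3 on the log2 scale, 34.5% were called in the NTC against in vivo 8-cell comparison (9394 genes, median estimate 2.82), with 3 false, 46% in in vivo 4-cell against 2-cell embryos (12802 genes) and 11% in NTM against NTC 4-cell embryos (10130 genes), so a gene that was not called may have changed. The 200 moved genes were a smaller share than the 52.2% that passed in the real in vivo step. The simulated recovery therefore need not be that of the real fit. Python 3.11.15, numpy 2.4.6, pandas 2.3.3 and matplotlib 3.10.9 were used. Alternatives were a pseudocount of 0.1, no filter, median-ratio scaling, 1 model of all 20 groups, fits with the replicate number as a block, calls without a fold limit, and leaving out each library. Scaling without mitochondrial reads and the test of 2 stages together were chosen after seeing the data.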

Additional observations from a re-analysis of the deposited data

Results flagged for a closer look

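Between stages, the NT minus in vivo difference of Pdcd4 was not the same. From the 1-cell to the 4-cell stage it shifted by -2.58 in NTC and by -2.92 in NTM embryos, tested in 1 limma model of both stages (adjusted p = 0.00439 and 0.00555), and all 6 NT libraries were above in vivo embryos in the first stage and below them in the second. Zfp985 shifted by -2.90 between the same stages in NTM embryos (limma adjusted p = 0.00521), and with any 1 library left out it was -3.32 to -2.50. NTM libraries held at most 5 reads of Zfp985 at both stages, so it passed the filter on low values through the in vivo libraries alone. The Zfp985 shift thus reflects the rise of the in vivo libraries, and the model was not fitted without the filter. The test was added after the values were seen, and 24.9% (NTC) and 18.7% (NTM) of all genes passed it. The share of mitochondrial reads also differed between in vivo and NT embryos at the 4-cell stage, and its part in these shifts was not tested.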

How the results depend on the processing

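The number of calls of Pdcd4 between NT and in vivo embryos (1 of 10 comparisons) was 2 with a pseudocount of 0.1, and 0 with no filter on low values, with median-ratio scaling, without mitochondrial reads in the scaling and with the replicate block; it was 0 to 2 with 1 library left out. Between successive stages (1 call) it was 2 with a pseudocount of 0.1, 3 in 1 model of all 20 groups, and 1 to 2 with 1 library left out. For Zfp985, 4 calls between NT and in vivo embryos became 2 with no filter and 3 to 5 with 1 library left out, and 0 calls between NTM and NTC embryos became 1 in the model of all 20 groups. That model also holds the blastulas on which both genes were selected. The blastula differences of Pdcd4 were -7.09 (NTC) and -6.01 (NTM) with a pseudocount of 0.1, and that of Zfp985 in NTM blastulas was -5.53 with median-ratio scaling. The replicate block (paired by number) changed no other count of calls of Pdcd4 or Zfp985. For the chromosome 4 list it moved the lower calls from 6 to 8 in NTC 8-cell, from 1 to 5 in NTM 8-cell and from 7 to 4 in NTM 4-cell embryos. Over all genes it moved the calls from 879 to 12 in NTC and from 70 to 9 in NTM blastulas, from 139 to 320 in NTC 8-cell embryos and from 126 to 9 in NTC 1-cell embryos, among others. With a pseudocount of 0.1 there were 1574 calls in NTC and 1254 in NTM blastulas, and with no filter on low values 78 and 1. In 8-cell embryos, in place of 139 calls in NTC and 174 in NTM embryos, limma with no filter gave 0 (1935 genes at an unadjusted p under 0.05) and 13, and the model of all 20 groups gave 637 in NTC embryos. Same-numbered libraries did not deviate together (correlations -0.18 to 0.11, in 0 of 30 comparisons over 0.1 for all pairs), so the numbers do not pair the embryos.

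Uncalled differences near 0 changed sign. The step of Pdcd4 from in vivo 2-cell to 4-cell embryos was -0.067 with median-ratio scaling, and Zfp985 in NTC 1-cell embryos was -0.044 with a pseudocount of 0.1. With 1 library left out, the Pdcd4 differences ran from -0.021 to 1.10 (NTC 2-cell) and from -0.25 to 1.12 (NTM 2-cell) against in vivo embryos, from -0.27 to 0.31 and -0.31 to 0.27 in the first 2 in vivo steps, from -0.21 to 0.46 and -0.65 to 0.75 between NTM and NTC 1-cell and 2-cell embryos, and from -0.26 to 0.75 between MEFs and CCs. Those of Zfp985 ran from -0.54 to 0.45 in NTC 1-cell embryos, from -0.36 to 1.39 in the NTC step from the 4-cell to the 8-cell stage, and from -0.54 to 1.20 and -0.39 to 0.69 between NTM and NTC 8-cell embryos and morulas. The cause was not tested. Values of Pdcd4 in 8-cell embryos and morulas rest on 0 to 34 reads, which limits what can be compared there.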
